A study of Mus musculus with 36 samples.

Results

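The phosphofructokinase genes of mouse hepatocytes were described here as 7 genes of 52230 in the series, chosen by name. They were the 3 genes for the subunits of phosphofructokinase-1 (PFK1), Pfkl, Pfkm and Pfkp, and the 4 genes for the bifunctional enzymes that make and degrade fructose 2,6-bisphosphate, Pfkfb1, Pfkfb2, Pfkfb3 and Pfkfb4. Hepatocytes were isolated from 3 female mice of the GCKR-P446L-EMI-B6N strain aged 14 wk, with the genotype Gckr-446L in the labels of mice 1 and 2 but Gckr-446P/L in that of mouse 3. After treatment with adenoviral vectors they were cultured for 24 h in 5 mM glucose with 10 nM insulin and 10 nM dexamethasone and then incubated for 4 h with 25 mM glucose. RNA of 36 cultures in 10 conditions was sequenced.

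The conditions at endogenous glucokinase (GK) were untreated hepatocytes (UN), which had no vector, and hepatocytes expressing the glucokinase regulatory protein (GKRP) as human 446P (hP), human 446L (hL), mouse 446P (mP) or mouse 446L (mL). The other 5 conditions had a vector for GK overexpression, alone (GK) or with each of the 4 GKRP vectors (GK+hP, GK+hL, GK+mP, GK+mL). UN and GK had 2 cultures from each mouse, which were summed, and every other condition had 1, so each condition had n = 3 mice. No vector without a transgene was included, so in comparisons with UN, or where 1 group had a vector more than the other, the effect of a virus and the effect of its transgene cannot be told apart. The study's methods describe homozygous 446L mice, whose hepatocytes do not hold endogenous GK in the nucleus, and the label of mouse 3 differs from that description. All conditions share the P446L background, insulin, dexamethasone and the final 25 mM glucose.

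PFK1 catalyses the committed step of glycolysis, the phosphorylation of fructose 6-phosphate to fructose 1,6-bisphosphate. Its strongest activator is fructose 2,6-bisphosphate, which at the same time inhibits fructose-1,6-bisphosphatase, the opposing enzyme of gluconeogenesis. Each PFKFB protein has a kinase that makes this metabolite and a phosphatase that removes it. GK phosphorylates glucose at the entry to the pathway in the liver, and GKRP binds GK, inhibits it and holds it in the nucleus. The 446L form is the product of a common human variant and is known for a weaker response to fructose 6-phosphate, which promotes the binding of GKRP to GK.

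In GRCm39 the PFK1 genes are Pfkl (ENSMUSG00000020277, chr10:77818084-77845922, minus strand), Pfkm (ENSMUSG00000033065, chr15:97990451-98031417, plus strand) and Pfkp (ENSMUSG00000021196, chr13:6629798-6698970, minus strand). The PFKFB genes are Pfkfb1 (ENSMUSG00000025271, chrX:149371225-149426874, plus strand), Pfkfb2 (ENSMUSG00000026409, chr1:130616779-130656990, minus strand), Pfkfb3 (ENSMUSG00000026773, chr2:11476244-11558888, minus strand) and Pfkfb4 (ENSMUSG00000025648, chr9:108820832-108862847, plus strand). They lie on 7 chromosomes, and values are for whole genes unless a transcript is named.

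Libraries held 3924674 to 10046158 reads. Levels are given as CPM, gene counts relative to the library size after TMM scaling, unless CPM of the library is named. As a check of the vectors, Gckr, the gene of GKRP, was counted in each culture as CPM of the library, without TMM scaling. It was 8421 to 23190 CPM with the mouse GKRP vectors. Human GKRP is not among the mouse transcripts. One of the 2 GK-alone cultures of mouse 3 held 1425 CPM of Gckr, while the other 5 GK-alone cultures held 53.9 to 96.1 CPM, and the main results are given without it too. The 9 hepatocyte markers summed to 73790 to 140300 CPM in every sample. The markers of macrophages (215 to 341 CPM), endothelial cells (52.5 to 117 CPM), stellate cells (12.1 to 149.9 CPM) and cholangiocytes (15.4 to 245 CPM) were far lower. None of these marker lists had a gene at 0 in all samples.

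The main start sites of Pfkfb3 and Pfkp are shown because these genes had like patterns over the samples and because both windows hold an E-box, the letters CACGTG, which basic helix-loop-helix transcription factors bind. Pfkl, the gene with the most reads, is shown beside them and holds none. The sequences are the 250 bases before the start of the transcript with the most reads, from GRCm39, 5′ to 3′ on the strand of the gene, with the E-box in capitals. The Pfkfb3 window is chr2:11506913-11507162 (minus strand, before Pfkfb3-206), the Pfkp window chr13:6698971-6699220 (minus strand, before Pfkp-201) and the Pfkl window chr10:77845923-77846172 (minus strand, before Pfkl-201).
Pfkfb3: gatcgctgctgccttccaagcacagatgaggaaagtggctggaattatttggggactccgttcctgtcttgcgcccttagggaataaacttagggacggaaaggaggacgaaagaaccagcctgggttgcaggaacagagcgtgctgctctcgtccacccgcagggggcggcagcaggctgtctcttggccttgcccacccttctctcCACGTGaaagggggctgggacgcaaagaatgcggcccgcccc
Pfkp: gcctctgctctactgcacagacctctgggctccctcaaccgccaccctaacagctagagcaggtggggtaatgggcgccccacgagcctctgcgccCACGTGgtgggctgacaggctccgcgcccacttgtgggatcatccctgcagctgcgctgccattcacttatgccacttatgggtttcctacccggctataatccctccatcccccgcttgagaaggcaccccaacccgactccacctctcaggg
Pfkl: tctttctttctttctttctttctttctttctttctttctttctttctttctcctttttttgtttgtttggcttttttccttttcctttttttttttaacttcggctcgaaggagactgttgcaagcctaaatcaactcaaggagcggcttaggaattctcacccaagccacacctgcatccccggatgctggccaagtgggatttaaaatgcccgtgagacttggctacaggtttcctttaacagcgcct

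The Pfkfb3 window overlaps an exon of another Pfkfb3 transcript, and the Pfkp and Pfkl windows hold no annotated exon. The E-box lay at bases -42 to -37 from the start of Pfkfb3-206 and at bases -154 to -149 from the start of Pfkp-201. A minor start of Pfkm, that of Pfkm-205, held it at -117 to -112. The motif reads the same on both strands, and 7.66% of 12161 promoters of genes tested, taken as 250 bases before the canonical start, held it. ACGTG, the core of the hypoxia response element, was searched on both strands and is part of the E-box, so both windows held it, as did 20.9% of all promoters. The carbohydrate response element, the known site of the glucose-sensing factor ChREBP, was searched by its consensus and had no match in the windows of the members, where 0.06% of all promoters had one. Such matches describe letters and do not show binding.

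Pfkl, the liver subunit of PFK1, had the highest level of the family (median of 30 samples 61.5 CPM per kb of its main transcript). Pfkfb3, known as the inducible isoenzyme with the highest ratio of kinase to phosphatase activity, was next at 15.3 CPM per kb. Its range, 6.51 to 32.2 CPM per kb, overlapped those of Pfkp and Pfkfb2. Pfkp, the platelet subunit, was at 11.7 and Pfkfb2, the heart isoenzyme, at 10.2 CPM per kb, with ranges that overlapped (2.32 to 19.0 and 2.20 to 17.6). Pfkfb1, the isoenzyme named for liver and muscle, was at 2.31 and Pfkm, the muscle subunit, at 2.00 CPM per kb, also with overlapping ranges. Pfkfb4, the isoenzyme named for testis, was lowest at 0.351 CPM per kb. It had 253 reads in all, 3 to 23 a sample, and did not pass the filter on low counts, so 6 of the 7 genes were tested. By the authors' TPM, Pfkfb2 and Pfkp changed places (medians 11.9 and 11.8 TPM) and the other 5 genes kept theirs.

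**Figure D1:**
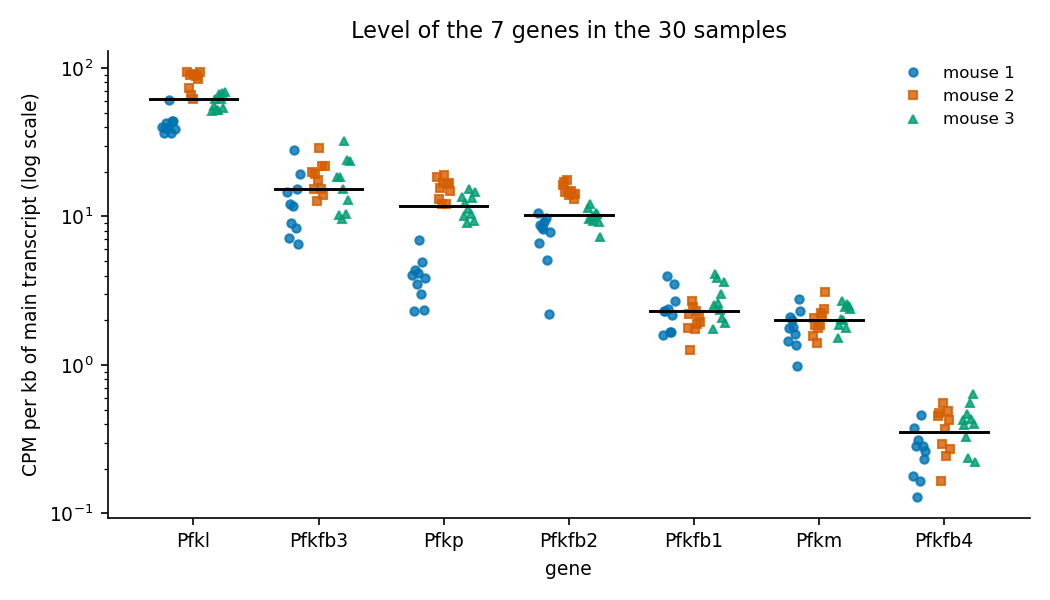
Level of each phosphofructokinase gene in CPM per kb of its main transcript (log scale), 1 point for each of the 30 samples, coloured by mouse, with a bar at the median. Pfkl was highest (median 61.5) and Pfkfb4 lowest (0.351), and the points of mouse 1 lay apart from the others in Pfkp.

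Levels of some members differed between mice. Pfkp was 6.21 to 18.5 CPM in mouse 1, 32.5 to 51.0 CPM in mouse 2 and 24.2 to 40.9 CPM in mouse 3, so no sample of mouse 1 reached those of the others. Pfkl was 135.9 to 228 CPM in mouse 1 and 232 to 351 CPM in mouse 2. Pfkfb2 was 6.28 to 30.2 CPM in mouse 1 and 37.6 to 50.2 CPM in mouse 2. Hepatocyte markers summed to 73790 to 96940 CPM in mouse 1, 117400 to 140300 CPM in mouse 2 and 93740 to 111800 CPM in mouse 3. Sums of other marker lists differed between mice too. Cholangiocyte markers summed to 143 to 245 CPM in mouse 1 against 15.4 to 34.2 CPM in the other mice. Stellate markers summed to 115 to 149.9 CPM in mouse 2 against 12.1 to 62.2 CPM. The high sums came mostly from single genes, Spp1 (up to 228 CPM) and Reln (up to 140.7 CPM). Of the cholangiocyte markers, Krt19, Krt7 and Epcam had medians of 0.916, 0.179 and 0.196 CPM, while Sox9 had 11.99 and Spp1 14.02 CPM. Of the stellate markers, Des, Pdgfrb, Acta2 and Col1a1 had medians of 0.148 to 0.476 CPM. The medians of Lrat, Col3a1, Rgs5 and Reln were higher, at 0.775, 1.91, 5.36 and 33.8 CPM. Whether cell content differed between the mice, and its part in the levels of the members, was not tested. In such bulk samples fewer cells of a type and less RNA per cell cannot be told apart. Since the mice differed and every mouse was in every condition, each result is given from the model without a mouse term, since the study's methods name none, and from the model with the mouse as a term (the replicate block) where that changed the call.

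Pfkfb3 was higher with GK overexpression alone than in the conditions with endogenous GK, and lower with GKRP and GK than with GK alone. The first comparison asks which genes GK overexpression changed relative to the 5 conditions with endogenous GK. These conditions include the 4 GKRP vectors, with Pfkfb3 means of 48.4 to 77.2 CPM against 81.6 CPM in UN. With GK alone Pfkfb3 was 129 CPM in mouse 1, 133 CPM in mouse 2 and 149 CPM in mouse 3. In UN it was 67.4, 91.9 and 85.6 CPM in the same order of mice. All 3 GK-alone samples lay above the other 27 samples, of which the highest was 112 CPM. Of all genes tested, 0.189% showed that separation upwards.

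Against the 5 endogenous-GK conditions Pfkfb3 rose with GK alone, with a log2 fold change of 1.07 (SE 0.23, ratio 2.1, edgeR adjusted p = 0.0228, higher in 3 of 3 mice). Called means here an adjusted p under 0.05 over the 12176 genes tested and a ratio of the groups that reached 1.3 upwards or 0.7 downwards. Of all genes 0.435% were called in this comparison, 48 raised and 5 lowered, and of the 6 members 1 was called, Pfkfb3. Its value in the model with the mouse term was 1.104 (SE 0.18, adjusted p = 3.45e-04). Without the GK-alone culture that stood apart in Gckr it was 1.11 (adjusted p = 0.0158). The call was lost without any 1 of the mice (adjusted p = 0.0505 without mouse 1, 0.125 without mouse 2 and 0.918 without mouse 3) and with an offset for transcript length (1.05, adjusted p = 0.555), while with the mouse as a term it held without each mouse (adjusted p 0.0142 to 0.0288).

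Against UN alone, Pfkfb3 was higher with GK by 0.75 (SE 0.28) in 3 of 3 mice, which did not pass the test without the mouse term (adjusted p = 1, 0.00821% of genes called). In the model with the mouse term, it rose by 0.77 (SE 0.16, adjusted p = 0.0293, 0.361% of genes called), a call that was lost without any 1 of the mice (adjusted p 0.249 to 1). The 2 comparisons share the GK-alone and UN samples.

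**Figure D2:**
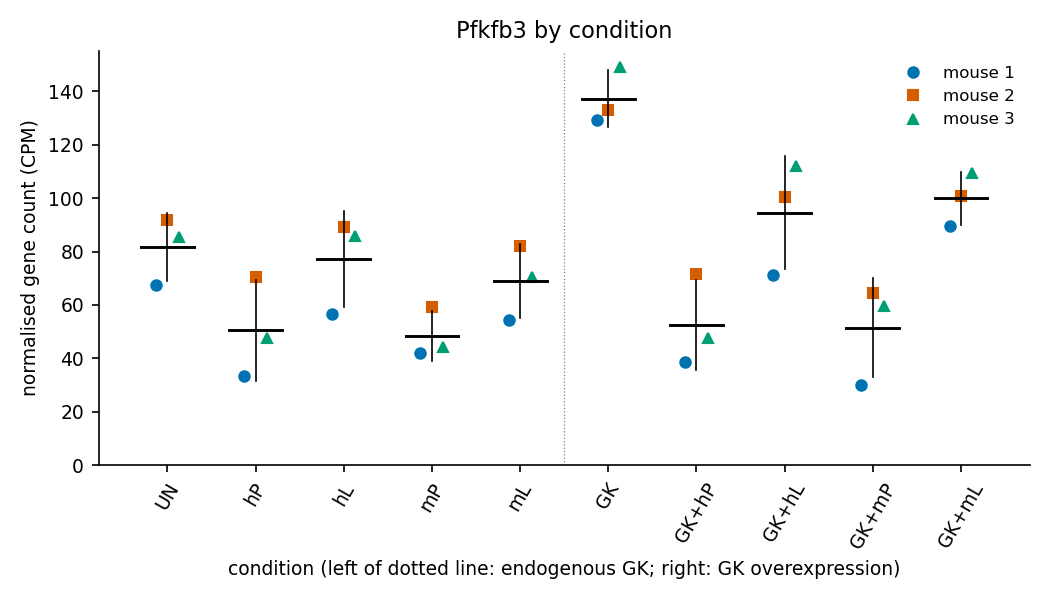
Pfkfb3 in CPM by condition, 1 point for each mouse, with a bar at the mean and a line for the SD (n = 3 mice). The 3 GK samples sit at 129 to 149 CPM above all others, and the 4 conditions with a 446P vector have the 4 lowest means, 48.4 to 52.7 CPM.

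GKRP with GK overexpression was compared with GK alone to ask whether GKRP opposes the effect of GK. Pfkfb3 was lower than with GK alone in 12 of 12 pairs of samples of the same mouse, as were 5.31% of all genes tested. With GK+hP it was 38.7, 71.4 and 47.8 CPM in mice 1, 2 and 3, and with GK+mP 30.2, 64.6 and 59.6 CPM. With GK+hL it was 71.2, 100.6 and 112 CPM, and with GK+mL 89.6, 101 and 109.5 CPM. None of these samples overlapped those of GK alone.

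On the mean of the 4 vectors Pfkfb3 fell, with a log2 fold change of -0.95 (SE 0.21, adjusted p = 0.0136, lower in 3 of 3 mice), where 1.59% of all genes were called and Pfkfb3 was the 1 member called. With the mouse term, it fell by 0.99 (SE 0.12, adjusted p = 9.23e-06, 4.35% of genes called), and without the GK-alone culture high in Gckr by 0.99 (adjusted p = 0.00953). Without mouse 3 the call was lost in the model without the mouse term (-0.96, adjusted p = 0.583) and kept with it (adjusted p = 0.00801).

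By vector, the Pfkfb3 value against GK alone was -1.38 with GK+hP (SE 0.33, adjusted p = 0.112, 0.107% of genes called) and -1.42 with GK+mP (SE 0.33, adjusted p = 0.0536, 0.271% called). Blocked by mouse, both 446P vectors lowered it, by -1.43 (adjusted p = 0.00317, 0.797% called) and by -1.48 (adjusted p = 0.00164, 4.6% called). The first call was lost without any 1 of the mice (adjusted p 0.0684 to 0.183) and the second without mouse 1 (adjusted p = 0.0930). For GK+hL the value was -0.54 (SE 0.32, adjusted p = 0.870, 0.00821% called) and for GK+mL -0.46 (SE 0.32, adjusted p = 1, 0.00821% called), and neither passed with the mouse as a term (adjusted p = 0.312 and 0.463). The 4 comparisons share the GK-alone samples.

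At endogenous GK the same vectors were compared with UN. Pfkfb3 was 33.4, 70.6 and 47.4 CPM with hP and 42.0, 59.1 and 44.2 CPM with mP. It was 56.5, 89.2 and 85.9 CPM with hL and 54.4, 82.1 and 70.7 CPM with mL. In mice 1, 2 and 3 alike both 446P samples lay below UN.

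Against UN the log2 fold change was -0.69 with hP (SE 0.28, adjusted p = 0.590, 0.756% of genes called) and -0.75 with mP (SE 0.28, adjusted p = 0.401, 1.13% called). With mice as blocks, Pfkfb3 fell by 0.73 with hP (adjusted p = 0.0135, 2.46% called) and by 0.75 with mP (adjusted p = 0.00848, 3.34% called). The hP call was lost without mouse 1 or mouse 3 (adjusted p = 0.151 and 0.369) and the mP call without mouse 3 (adjusted p = 0.301). With hL it differed by -0.08 (SE 0.28, 0.887% called) and with mL by -0.24 (SE 0.28, 1.03% called), which passed in neither model. On the mean of the 4 vectors the difference was -0.44 (SE 0.22, adjusted p = 0.544, 1.91% called). In the model with the mouse term, it was -0.46 (adjusted p = 0.0272, 4.14% called), under the fold change limit.

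The effect of GKRP with GK minus its effect at endogenous GK was -0.51 for Pfkfb3 (SE 0.31, adjusted p = 1 with and without the mouse term), so a difference between the 2 settings was not shown. In that comparison 0% of genes were called by edgeR, where 85 had an unadjusted p under 0.05 upwards and 93 downwards, and DESeq2 called 20. GK with GKRP against GKRP alone, on the mean of the 4 vectors, gave 0.24 (SE 0.14, adjusted p = 0.805, 0.0164% called). In means this was 50.5 CPM with hP and 52.7 with GK+hP, 48.4 with mP and 51.5 with GK+mP, and 77.2 with hL and 94.6 with GK+hL, while the GK+mL samples (89.6 to 109.5 CPM) lay above the mL samples (54.4 to 82.1 CPM).

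Whether the 446L form acts less than the 446P form was asked by comparing the vectors directly. Pfkfb3 was higher with 446L than with 446P in 12 of 12 pairs of the same mouse, species and GK level, by 0.34 to 1.56 on the log2 scale (median 0.71). Of all genes tested 0.501% were higher in all 12 pairs and 0.0986% lower, and Pfkfb3 was the 1 member among them. With GK overexpression the value was 0.84 for the human forms (SE 0.28, adjusted p = 1) and 0.96 for the mouse forms (SE 0.29, adjusted p = 1, 0.0164% called). For the human forms edgeR called 0% of genes, with 128 at an unadjusted p under 0.05 upwards and 127 downwards, and DESeq2 called 11. With the mouse term, Pfkfb3 was raised by 0.86 with GK+hL over GK+hP (adjusted p = 0.0306, 0.131% called) and by 1.02 with GK+mL over GK+mP (adjusted p = 0.0102, 0.205% called). Neither call held without any 1 of the mice (adjusted p 0.0711 to 0.842 and 0.107 to 0.511), and the second was lost without the GK+mP sample of mouse 1 (0.84, adjusted p = 0.0840).

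A mean over both species and both GK levels was added after these values were seen. It gave 0.73 for Pfkfb3 (SE 0.14, adjusted p = 0.139, higher in 3 of 3 mice) where 0.00821% of genes were called. Blocked by mouse, it was 0.75 (SE 0.08, adjusted p = 1.75e-05, 0.493% of genes called), and without mouse 3 the adjusted p with this term was 0.0593. Without the GK+mP sample of mouse 1, the lowest of all for Pfkfb3, the value was 0.71 with the mouse as a term. In CPM of the library Gckr, which counts the mouse vectors, was 13090 to 23190 with mP and 10120 to 16680 with mL at endogenous GK. With GK it was 13770 to 20040 and 8421 to 15160, so the mL vector also gave fewer counts. The part of this in the difference was not tested.

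**Figure D3:**
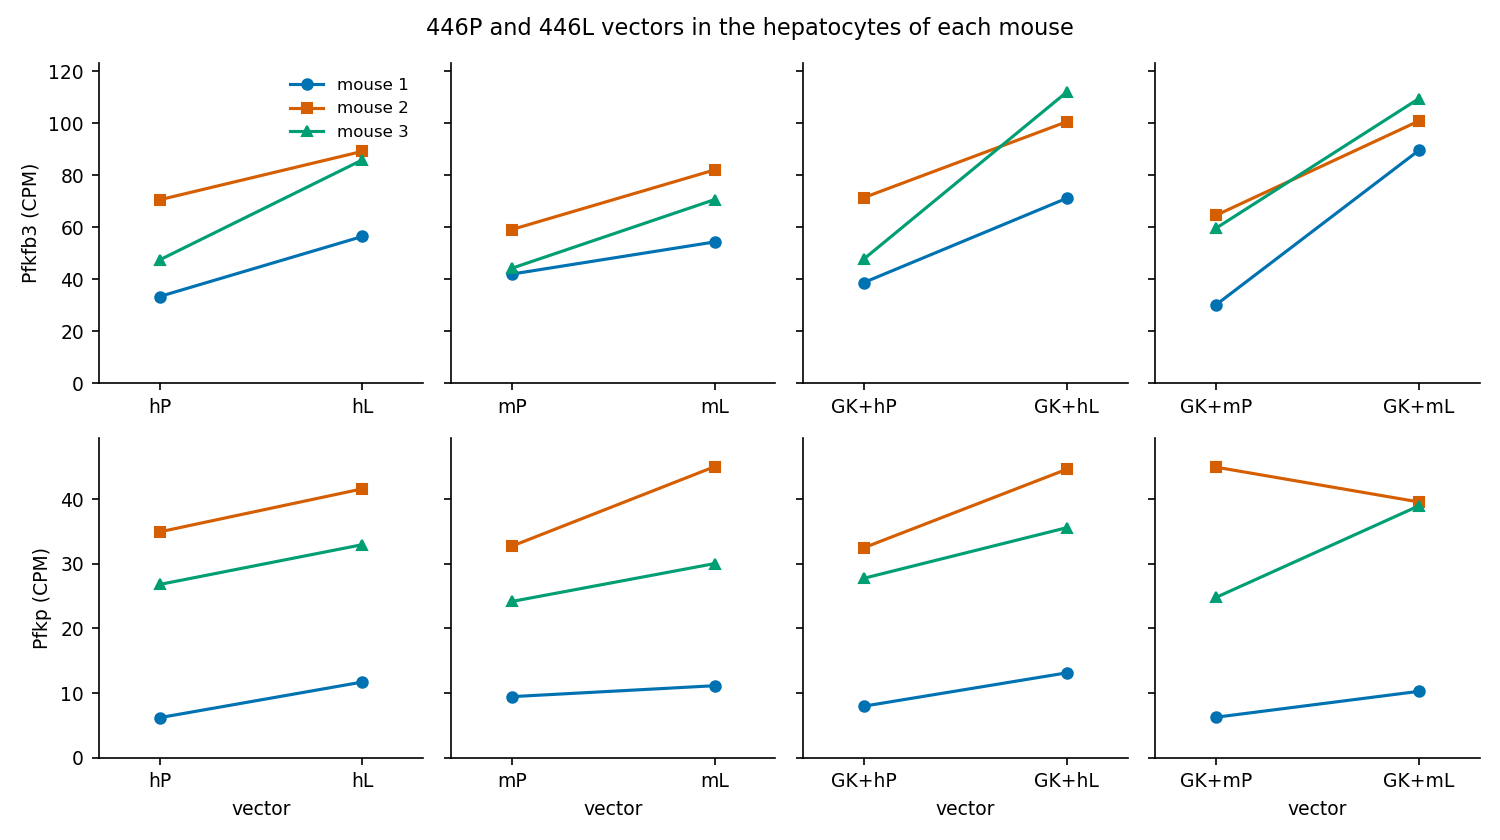
Pfkfb3 (top) and Pfkp (bottom) in CPM with the 446P and the 446L form of the same species and GK level, with a line joining the 2 samples of a mouse. All 12 lines rise for Pfkfb3 and 11 of 12 for Pfkp.

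Most Pfkfb3 reads came from 1 start. The 11 transcripts that begin at 11506886 to 11506912 on chromosome 2, before which the window shown above lies, held 93.4% of the reads, and the 10 with other starts held 6.6%. Transcripts from the main start summed to 65.7, 81.0 and 81.1 CPM of the library in UN and to 127, 116 and 138 CPM with GK alone. They were 38.3, 66.0 and 49.7 CPM with GK+hP and 25.6, 57.6 and 58.5 CPM with GK+mP. With the 446L forms they were 71.2, 67.8 and 108.9 CPM with GK+hL and 81.35, 83.85 and 105 CPM with GK+mL, so in mouse 2 the main start was close in GK+hL and GK+hP. The other starts together were 2.77 to 7.26 CPM in UN and 5.65 to 8.45 CPM with GK alone. They were 0, 24.3 and 8.09 CPM with GK+hL, the widest spread of the 10 conditions, and 9.53 to 10.4 CPM with GK+mL. How Salmon divides reads among the transcripts of this start varied widely: Pfkfb3-214 was 0 CPM in mouse 2 and 27.2 CPM in mouse 1 in UN, so single transcripts were not compared.

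Pfkp had values of the same sign as Pfkfb3 in the GK comparisons, none of them called without the mouse term. In UN it was 10.9, 49.6 and 36.4 CPM in mice 1, 2 and 3, and with GK alone 18.5, 51.0 and 40.9 CPM. The GK-alone sample was the highest of the 10 conditions in each mouse for Pfkfb3 and Pfkp, as for 1.52% of all genes tested. Against the 5 endogenous-GK conditions the value was 0.45 (SE 0.53, adjusted p = 1.00) and, with the mouse as a term, a rise of 0.56 (SE 0.15, adjusted p = 0.0410), in a fit that called 1.98% of all genes. That call was lost without any 1 of the mice (adjusted p 0.127 to 0.325). Against UN it was 0.19 (SE 0.75), or 0.32 with the mouse as a term (SE 0.16, adjusted p = 0.942).

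Pfkp was below GK alone in 12 of 12 pairs with GKRP and GK. With GK+hP it was 7.99, 32.5 and 27.8 CPM, and with GK+mP 6.28, 44.9 and 24.8 CPM. On the mean of the 4 vectors the value was -0.45 (SE 0.58, adjusted p = 0.991), and with the mouse as a term Pfkp fell by 0.57 (SE 0.13, adjusted p = 0.00536), a call lost without mouse 1 or mouse 3 (adjusted p = 0.0803 and 0.0933). It also fell with GK+mP in that model, by 0.76 (adjusted p = 0.0312), but not without the GK+mP sample of mouse 1 (-0.58, adjusted p = 0.190), nor without all of mouse 1 or mouse 3 (adjusted p = 0.385 and 0.165). The 446L forms were higher than the 446P forms in 11 of 12 pairs, and the mean over the pairs was 0.35 (SE 0.38, adjusted p = 1) or, with the mouse as a term, a rise of 0.40 (SE 0.09, adjusted p = 0.0261), lost without any 1 of the mice (adjusted p 0.0769 to 0.740). With an offset for transcript length, in a model without the mouse term, the Pfkp value turned to -0.17 for GK alone against the 5 conditions and to 0.20 for GKRP with GK against GK alone. Part of its reads were assigned to Pfkp-212, a transcript with a retained intron (21.0% of Pfkp reads, against 53.6% for Pfkp-201).

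Pfkl had smaller values than Pfkfb3 in these comparisons. In UN it was 148.8, 348 and 190.3 CPM in mice 1, 2 and 3, and with GK alone 228, 338 and 250.4 CPM. It was higher with GK than in UN in mice 1 and 3 and lower in mouse 2. Against the 5 endogenous-GK conditions the value was 0.36 (SE 0.28, adjusted p = 0.926), and with the mouse as a term Pfkl rose by 0.40 (SE 0.10, adjusted p = 0.0291), a call lost without any 1 of the mice (adjusted p 0.0593 to 0.350). Against UN it was 0.25 (SE 0.40), which did not pass with the mouse as a term (adjusted p = 0.735). GKRP with GK against GK alone gave -0.18 (SE 0.31), and 446L against 446P 0.10 (SE 0.20), neither called in either model. The direction of the Pfkl values against UN and for GKRP with GK turned under the length offset (-0.04 and 0.03).

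Pfkfb1 was low, and the mean of the 4 GKRP vectors at endogenous GK lay above UN in 3 of 3 mice. In UN it was 2.77, 3.08 and 3.06 CPM, from 28, 41 and 41 reads. With mP it was 6.88, 4.70 and 6.69 CPM, and with GK+mP 6.13, 3.69 and 6.25 CPM. The mP samples lay above those of UN.

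Against UN, Pfkfb1 with mP gave 1.03 (SE 0.30, adjusted p = 0.130), and with the mouse as a term it rose by 1.01 (SE 0.25, adjusted p = 0.0224, higher in 3 of 3 mice), a call lost without any 1 of the mice (adjusted p 0.0649 to 0.290). On the mean of the 4 vectors against UN the value was 0.65 (SE 0.24, adjusted p = 0.270, and 0.0721 with the mouse as a term). GK alone against the 5 endogenous-GK conditions gave -0.38 (SE 0.27) and GKRP with GK against GK alone 0.31 (SE 0.24), which were not called in either model.

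Pfkm and Pfkfb2 were called in no comparison in either model. Pfkm was 4.16 to 4.5 CPM in UN, 4.63 to 7.03 CPM with GK alone and 6.62 to 8.95 CPM with GK+mL, from 15 to 88 reads a sample. Its values were 0.09 (SE 0.19) for GK alone against the 5 endogenous-GK conditions and 0.14 (SE 0.20) for GKRP with GK against GK alone. Pfkfb2 was 30.2, 46.4 and 32.3 CPM in UN and 26.2, 39.8 and 28.4 CPM with GK alone. The same 2 comparisons gave -0.08 (SE 0.33) and -0.17 (SE 0.36). The GK+mP sample of mouse 1 held 6.28 CPM of Pfkfb2, where the other samples of that mouse held 14.5 to 30.2 CPM.

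Pfkfb4 was 0.594, 1.5 and 1.42 CPM in UN and 0.545, 1.24 and 1.84 CPM with GK alone. The groups overlapped, and at 3 to 23 reads a sample a difference was not detectable at this depth.

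**Figure D4:**
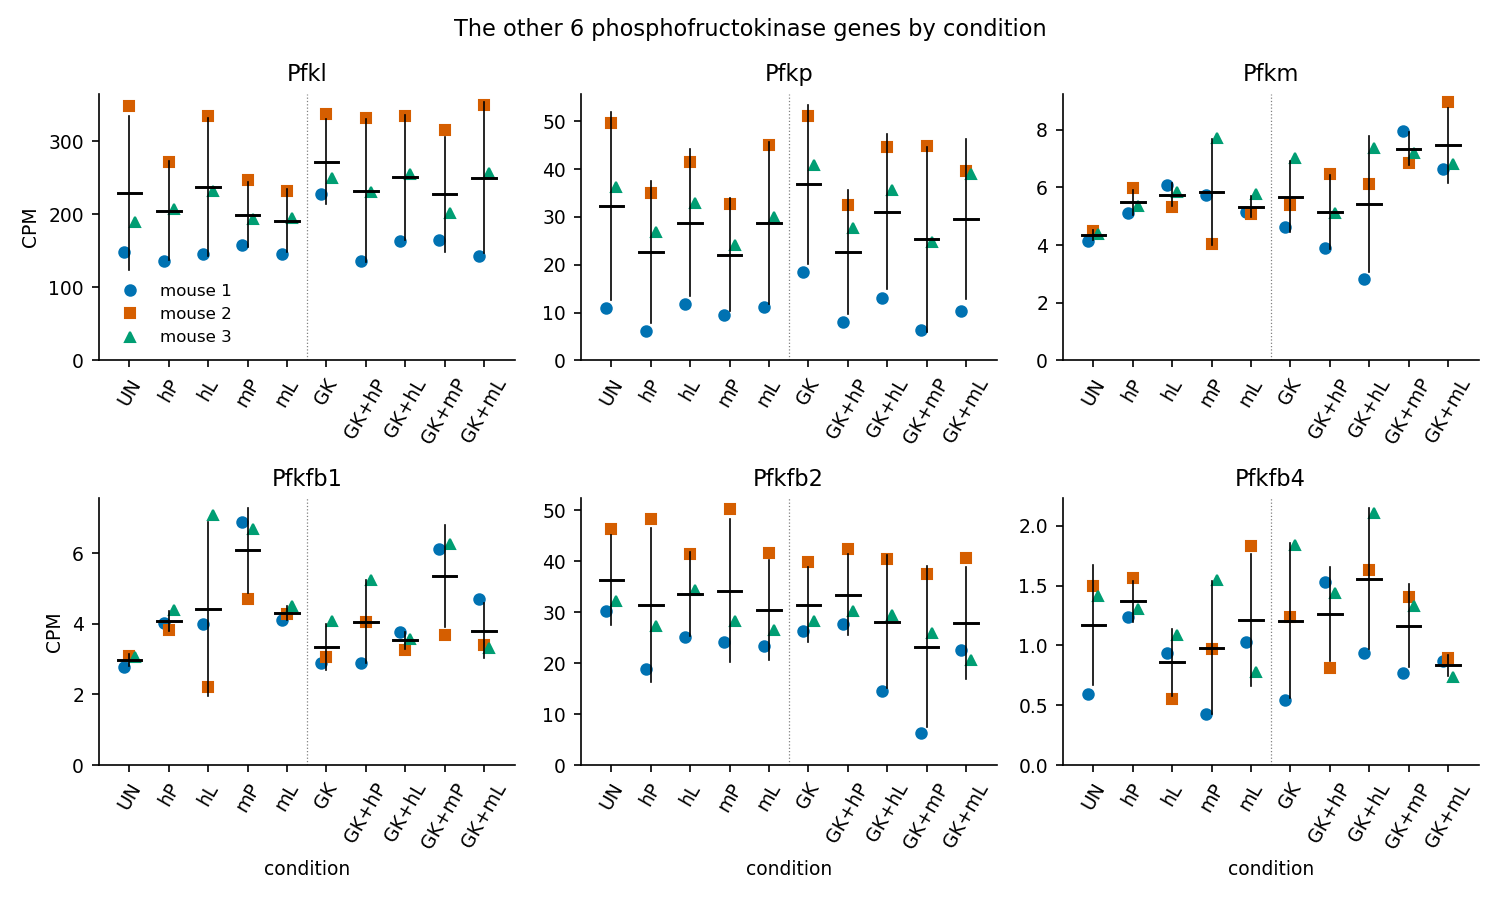
The other 6 phosphofructokinase genes in CPM by condition, with points for mice, a bar at the mean and a line for the SD (n = 3 mice). Pfkl and Pfkp keep the same order of the mice in every condition, and Pfkfb1 is highest with mP.

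**Figure D5:**
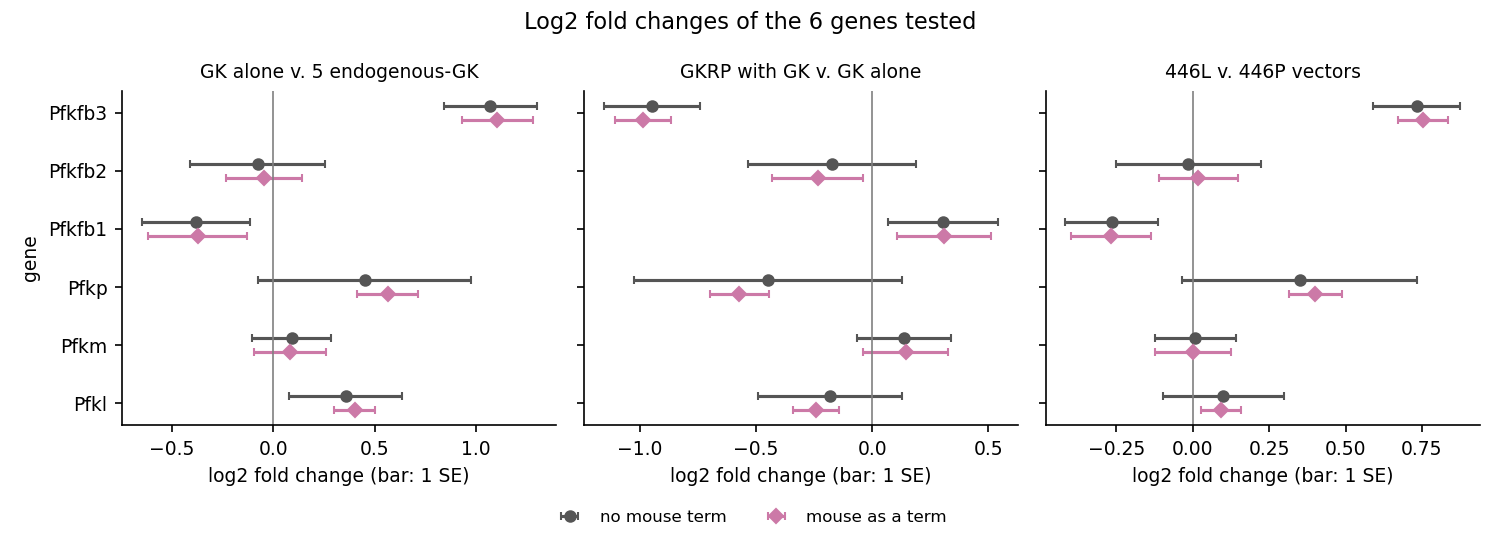
Log2 fold changes of the 6 genes tested with bars of 1 SE in 3 comparisons, from the model without a mouse term (circles) and with the mouse as a term (diamonds). Pfkfb3 has the largest value in each, 1.07, -0.95 and 0.73, and the bars of Pfkl and Pfkp shorten with the mouse as a term.

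The other enzymes of glycolysis were read beside the family, from a list of 18 genes of which 17 were tested (Eno2 was not). With GK alone against the 5 endogenous-GK conditions 3 were raised and none was lowered, where 0.435% of all genes tested were called. Among the 3, Pklr, the liver pyruvate kinase, rose by 1.58 (SE 0.26, adjusted p = 9.79e-04). A value above 0 was found in 16 of 17, and the median was 0.29 where that of all genes was -0.01. With mice as blocks, 6 were raised, where 1.98% of all genes were called. Among these 6 were Gpi1, the isomerase that makes fructose 6-phosphate (0.57, adjusted p = 4.44e-06), Eno1 (0.44) and Pkm (0.43). Hk1, a hexokinase of most other tissues, was lowered with GK+mP against GK alone in that model (-0.59, adjusted p = 0.0391).

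On the mean of the 4 vectors, GKRP with GK against GK alone lowered 2 of the 17, among them Pklr, with a log2 fold change of -1.37 (SE 0.24, adjusted p = 0.00153). In that comparison 1.59% of all genes were called. Of the 17 values 13 were below 0, and their median was -0.23 where that of all genes was 0.009. Pklr was 115, 55.7 and 96.8 CPM in UN, 178, 121 and 229 CPM with GK alone and 57.4, 47.2 and 61.9 CPM with GK+mP. With the human forms it was 68.1, 40.2 and 68.6 CPM with GK+hP and 70.0, 48.9 and 71.6 CPM with GK+hL. In the model with the mouse term, Pklr was higher with GK+mL than with GK+mP (0.87, adjusted p = 0.0102), and it was lower than in UN with the 4 GKRP vectors at endogenous GK (-0.80 on their mean, adjusted p = 4.30e-05).

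Of 9 genes of gluconeogenesis and of the removal of fructose bisphosphates, all tested, 1 was raised with GK alone against the 5 endogenous-GK conditions and none was lowered (median -0.10). The median of all genes was -0.01, and 0.435% of them were called. G6pc1, the catalytic subunit of glucose 6-phosphatase, rose by 3.17 (SE 0.55, adjusted p = 0.00217). Its level was low and varied between mice, at 0.396, 2.78 and 3.65 CPM in UN and 3.45, 24.5 and 16.6 CPM with GK alone. With the GKRP vectors at endogenous GK it was 0 to 3.48 CPM. With the mouse term, Slc37a4, the glucose 6-phosphate transporter, was raised too (1.08, adjusted p = 5.57e-06). GKRP with GK against GK alone lowered neither gene in the model without the mouse term and lowered both with it (G6pc1 -2.11, adjusted p = 1.35e-04, and Slc37a4 -0.66, adjusted p = 0.00223).

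The enzymes that oppose PFK1 and PFKFB kinase did not pass for GK alone against the 5 conditions, the comparison of the log2 fold changes given here unless another is named. Fbp1, the liver fructose-1,6-bisphosphatase, was 96.8, 99.2 and 83.6 CPM in UN and 137, 119 and 89.8 CPM with GK alone (0.21, SE 0.16). Tigar, a fructose-2,6-bisphosphatase, was 22.8 to 25.1 CPM in UN and 22.6 to 23.1 CPM with GK alone (-0.25, SE 0.12). Fbp2, the muscle fructose-1,6-bisphosphatase, was 1.57 to 1.88 CPM in UN and 2.00 to 3.20 CPM with GK alone, with a value of 0.48 against UN (SE 0.28) and of -0.10 against the 5 conditions (SE 0.26), which include the GKRP vectors at 1.70 to 4.19 CPM. Blocked by mouse, Fbp2 rose with GK+mP against GK alone (1.07, adjusted p = 0.0461, 4.6% of genes called). It also rose with hL against UN in that model (1.06, adjusted p = 0.0237, 2.96% called). Neither was called without the mouse term. Fbp2 was low there, at 4.39 to 5.67 CPM with GK+mP and 3.28 to 3.95 CPM with hL.

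Likeness of pattern was measured as Pearson's r of log2 CPM centred within each mouse, over 30 samples that share mice and controls. The gene nearest to Pfkp was Pfkfb3 (r = 0.86), followed by Ak4 (0.86) and Acer2 (0.82). Nearest to Pfkfb3 were Bhlhe40 (0.94), Shroom1 (0.91) and Gm49759 (0.897). Nearest to Pfkl were Smox (0.88), Tkt (0.86) and Slc16a3 (0.84).

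Pfkfb2 was nearest to Aff4 (0.96), Wnk1 (0.95) and Usp34 (0.95). All 4 were lowest of the 30 samples in the GK+mP sample of mouse 1, where Aff4 held 73.8 CPM against 139 to 246 CPM in the other samples of that mouse, and the part of this sample in the likeness was not tested. Pfkfb1 (Haus7, Dcbld1 and Tinf2, 0.70 to 0.71) and Pfkm (Mrpl4, Alkbh7 and Prrg1, 0.65 to 0.69) had no gene as near. Within the family Pfkfb3 and Pfkl gave 0.58, Pfkl and Pfkp 0.55, and Pfkfb1 with Pfkfb3 -0.51 and with Pfkp -0.51.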

How the data were processed

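RNA of 36 cultures was sequenced, and the authors deposited for each the Salmon 1.4.0 output on untrimmed reads against mouse transcripts of Gencode M26 (GRCm39): expected counts (not normalized), TPM (normalized within a library by the authors) and effective lengths. Of 139225 transcripts, 137570 (98.8%) were paired with 52230 genes of a later Gencode release, and expected counts were summed per gene, rounded and summed over cultures of the same mouse and condition, giving 30 samples.

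edgeR 4.0.16 (R 4.3.3) was used with filterByExpr (12176 genes), TMM (factors 0.901 to 1.093), glmQLFTest and Benjamini-Hochberg adjustment over all genes. The standard error is the log2 fold change divided by the square root of F. GK alone against the 5 endogenous-GK conditions, and each GK+GKRP vector against GK alone, used a model with 6 groups, in which these 5 conditions were 1 group. The other comparisons used 10 conditions. The thresholds follow the study's FDR and change of 30%, as at least 1.3 or at most 0.7. The model without the mouse term was checked, for some of the comparisons, on simulated counts that held no difference between mice. The model with the mouse term was not checked in this way. Alternatives were RLE, DESeq2 1.42.0, other filters, each culture as a sample, a transcript length offset, libraries or mice left out and the mouse as a term.

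Samples are paired by the mouse that the labels name. The mean correlation of sample deviations from their condition was 0.223 within a mouse (135 pairs) and -0.110 between mice. Biological coefficients of variation were 0.323 without and 0.231 with the mouse term. The members and gene lists were chosen with earlier results of these data known. The genes named are the 7 members and the list genes called in a comparison with Fbp1, Fbp2 and Tigar. Gckr as a check of the vectors, some cell type markers and the 3 genes nearest to each member tested are named too. Some genes under this rule are not reported here.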

Additional observations from a re-analysis of the deposited data

Results flagged for a closer look

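In the conditions with 6 cultures (UN and GK alone), each member and the targeted genes were examined for a culture whose gap to its nearest neighbour was over 0.625 of the range, in 18 groups in all, of which chance gives about 1 in 20 for independent values. The cultures are 2 from each of 3 mice and so not independent. In CPM of the library, Pfkfb3 was 58.05 in 1 UN culture of mouse 1, below the 83.4 to 91.5 of the other 5. Pfkfb2 was 41.0 in 1 GK culture of mouse 2, above 25.3 to 29.7 in the others. Pfkm was 8.43 in 1 GK culture of mouse 3, above 4.19 to 5.73. Gckr was 1425 in the other GK culture of mouse 3, above 53.9 to 96.1, which is the culture left out in an alternative.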

How the results depend on the processing

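RLE scaling, no filter, a minimum mean of 10 CPM, no fold change threshold and leaving out the GK+mP sample of mouse 1 kept the number of members called in every comparison in which they were run. A length offset lowered it from 1 to 0 for GK alone against the 5 endogenous-GK conditions and for the 4 GKRP vectors plus GK against GK. DESeq2 and the 36 cultures taken as samples raised it from 0 to 1 for GK+hP and GK+mP against GK alone and for 446L against 446P. The cultures did so too for the mean of the GKRP vectors and for mP against UN (Pfkfb1 in both). The model with 10 conditions gave 1 for GK+hP and GK+mP, and leaving out the GK-alone culture high in Gckr gave 1 for GK+mP.

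The replicate block (the mouse as a term) gave 3 members for GK alone against the 5 conditions and 2 for GK+mP and for the mean of all GKRP vectors plus GK against GK, for mP against UN and for 446L against 446P. It gave 1 for GK alone against UN, GK+hP against GK alone, GK+hL against GK+hP, GK+mL against GK+mP and hP against UN, and it changed no other call. With the block and without the culture high in Gckr these numbers were the same except for 2 with GK+hP. With the block and without the GK+mP sample of mouse 1 they were 3 for GK alone against the 5 conditions, 2 for GK+hP, for the mean with GK, for hP and for mP, and 1 for GK alone against UN, GK+mP, GK+hL against GK+hP and 446L against 446P.

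Without 1 mouse, the number of members called was 0 for GK alone against the 5 conditions (1 with the block) and ranged from 0 to 1 for the mean with GK (1 to 2 with the block). Counting also the fits without the GK+mP sample of mouse 1, with and without the block, the ranges were 0 to 3 and 0 to 2. With the block it ranged from 0 to 1 for the mean of the GKRP vectors, hP (0 to 2 over all) and 446L against 446P, and from 0 to 2 for GK+mP and, over all such alternatives, for mP (0 without mouse 3, 2 without the GK+mP sample of mouse 1). Over all genes, edgeR, DESeq2 and edgeR with the block called 53, 164 and 241 for GK alone against the 5 conditions, and 194, 303 and 530 for the mean with GK. For 446L against 446P they called 1, 26 and 60. The ratio of GK alone to UN for Pfkfb3 was 1.68 in CPM and 2.14 in the authors' TPM.

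Small values turned direction. For GK alone against the 5 conditions, values without 1 mouse ranged from -0.1394 (without mouse 1) to 0.0133 (without mouse 2, 0.0258 with the block) for Pfkfb2 and from -0.016 (without mouse 3, -0.0211 with the block) to 0.2098 for Pfkm. For the GKRP vectors against UN they ranged from -0.2784 to 0.0536 for Pfkl (without mouse 2, 0.0421 with the block). Under the length offset, GK alone against the 5 conditions gave -0.0122 for Pfkm and -0.17 for Pfkp, GK alone against UN -0.0383 for Pfkl and -0.51 for Pfkp, and GKRP plus GK against GK alone 0.0271 for Pfkl and 0.20 for Pfkp. The cause was not tested. At 12 to 88 reads a sample, depth limits Pfkfb1 and Pfkm.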
